A study of Rattus norvegicus with 15 samples.

Results

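The 47 genes described here drive the cell cycle and DNA replication, and they were followed array by array in the intestine of Wistar rats and of operated GK rats. They were chosen by gene name, and each was represented by its brightest probe. Of the 47 genes, 45 had a probe under their name or an older alias and 44 passed the filter on dim probes, out of 13023 genes tested. No probe carried the name Mki67, the marker of cycling cells, or the name Cdca3, a mitotic entry factor. The probe of Nusap1, a spindle-binding protein, was well above background on 11 of 15 arrays but on no full group, and its log2 signal ran from 2.83 to 4.67.

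RNA was measured on 15 one-color arrays, 1 array per rat and 5 rats per group, and all rats were male. Wistar rats were nondiabetic and had no operation. GK rats are a nonobese strain with spontaneous diabetes. GK-Sham-PF rats were pair-fed GK rats in which the intestine was cut 16 cm from the ligament of Treitz and rejoined, and GK-S-30 rats were GK rats that underwent RYGB (Roux-en-Y gastric bypass) with a Roux limb (RL) of 30 cm. The latter 2 groups are called sham and RYGB rats below and carry their full names in the plots. GK rats were operated on at 16 wk of age, and tissue was taken 14 wk postoperation after an overnight fast. The piece was 5 cm long and lay 5 cm from the gastric anastomosis in the RL, or 21 to 26 cm from the ligament of Treitz in the other groups. Strain, diabetes, pair-feeding and the sham operation therefore cannot be told apart between sham and Wistar rats. RL position, rearranged intestine and operation likewise cannot be told apart between RYGB and sham rats. Between RYGB and Wistar rats, strain, diabetes, operation, rearranged intestine and RL position all differ and cannot be told apart.

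In the small intestine, cells divide in the crypts and stop dividing as they move onto the villi. Entry into the cycle depends on G1 cyclins and their kinases, which release E2F factors to switch on genes for DNA replication and nucleotide supply. Later, factors that act through CCAAT boxes and the cell cycle homology region (CHR) switch on mitotic genes, and the anaphase-promoting complex ends mitosis by marking cyclins for breakdown.

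The 15 arrays were alike in brightness apart from a pair. The 75th percentile of the processed signal was 206.6 on Wistar replicate 3 and 208.4 on sham replicate 5, and between 301.9 and 357.2 on the others. The epithelium markers were above background on all arrays (9 of 9 genes). The arrays lay on 4 slides, named A to D here, and a slide was also 1 scan. Wistar replicates 2 to 5 lay on slide A, Wistar replicate 1 with sham replicates 1 to 3 on slide B, sham replicates 4 and 5 with RYGB replicates 1 and 2 on slide C, and RYGB replicates 3 to 5 on slide D. No group was spread evenly over the slides, and no slide held both Wistar and RYGB arrays. Slide therefore cannot be told apart directly from the other differences between RYGB and Wistar rats, and it goes partly with group in the other comparisons.

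The promoters of 36 of the 47 genes were found in the RefSeq table (GRCr8; 250 bases before to 50 after the start of the gene). They were searched on both strands for CCAAT, for the CHR (TTTGAA or TTCGAA) and for E2F sites (TTTCCCGC, TTTCGCGC, TTTGCCGC or TTTGGCGC). These motifs can overlap one another. CCAAT was found in 26 of 36 promoters (72.2%, against 37.5% of all 33469 promoters), the CHR in 19 (52.8%, against 19.7%) and an E2F site in 8 (22.2%, against 2.14%). Both CCAAT and the CHR were found in 16 (44.4%, against 7.95%). The E2F sites were in the promoters of Mcm2, Mcm3, Mcm5, Mcm6 and Mcm7, subunits of the replicative helicase, and of Tyms, Cdc25a and Cdk1. A match describes the letters only.

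The 250 bases before the start (GRCr8) are shown for 3 genes whose group differences are described further on, with motif matches in capitals. They are Cdc25a (chr8:118742798-118743047, plus strand), Ccnb2 (chr8:79981659-79981908, minus strand) and Tyms (chr9:120776084-120776333, minus strand), each written 5′ to 3′ along the gene. Cdc25a holds 1 CCAAT box, read on the opposite strand, and 1 E2F site, Ccnb2 holds 3 CCAAT boxes and 2 CHR matches, and Tyms holds 1 E2F site.
Cdc25a: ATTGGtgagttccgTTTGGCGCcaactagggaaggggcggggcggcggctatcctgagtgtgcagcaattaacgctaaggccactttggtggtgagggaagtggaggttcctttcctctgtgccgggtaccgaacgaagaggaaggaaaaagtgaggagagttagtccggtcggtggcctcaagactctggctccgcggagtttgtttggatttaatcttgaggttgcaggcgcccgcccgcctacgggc
Ccnb2: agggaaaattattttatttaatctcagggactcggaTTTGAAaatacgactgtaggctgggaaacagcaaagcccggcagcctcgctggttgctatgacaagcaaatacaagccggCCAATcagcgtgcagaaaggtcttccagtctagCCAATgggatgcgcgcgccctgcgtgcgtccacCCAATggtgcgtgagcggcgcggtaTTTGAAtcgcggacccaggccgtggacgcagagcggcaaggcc
Tyms: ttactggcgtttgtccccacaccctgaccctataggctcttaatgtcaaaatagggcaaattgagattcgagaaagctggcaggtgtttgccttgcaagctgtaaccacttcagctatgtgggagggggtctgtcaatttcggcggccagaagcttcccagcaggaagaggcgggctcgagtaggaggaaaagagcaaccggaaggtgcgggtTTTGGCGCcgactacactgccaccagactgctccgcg

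Across the 44 tested genes, means tended to be highest in RYGB rats, where the arrays also spread most widely. None of the 44 passed an adjusted p of 0.05 by limma between RYGB and sham rats, where 9.65% of all genes passed. Without adjustment, limma gave p under 0.05 for 8 of 44 members (23.7% of all genes), and Tukey's comparison, the test named in the methods, gave 4 (Tyms, Tk1, Ccnb1 and Kif20a; 16.3% of all genes). The mean was higher in RYGB for 37 of 44 genes, with a median log2 difference of 0.23 against -0.03 over all genes. Between sham and Wistar rats, 3 of 44 passed (8.83% of all genes), 1 higher and 2 lower (4.2% and 4.63% of all genes), with a median of 0.07 against 0.01. Between RYGB and Wistar rats, 11 of 44 passed (26.2% of all genes), 9 higher and 2 lower (12.4% and 13.8% of all genes), with a median of 0.27 against -0.02. Cdc25a, which passed the filter on dim probes through Wistar alone, is 1 of the 3 and 1 of the 11. The share of members called was below or near that of all genes in each comparison. The comparisons share groups and are not independent of one another. RNA came from whole tissue, so fewer cells of a type and less RNA per cell cannot be told apart.

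The order of the group means was Wistar, then sham, then RYGB as the highest for 25 of 44 genes. For 8 genes, Mcm2 and Ccnb1 among them, sham was lowest and RYGB highest. Tk1, Ccnd1, Cdc25a and E2f1 were highest in Wistar and lowest in sham. No gene's means differed past the threshold between RYGB and sham, and those of 3 did between sham and Wistar.

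**Figure D1:**
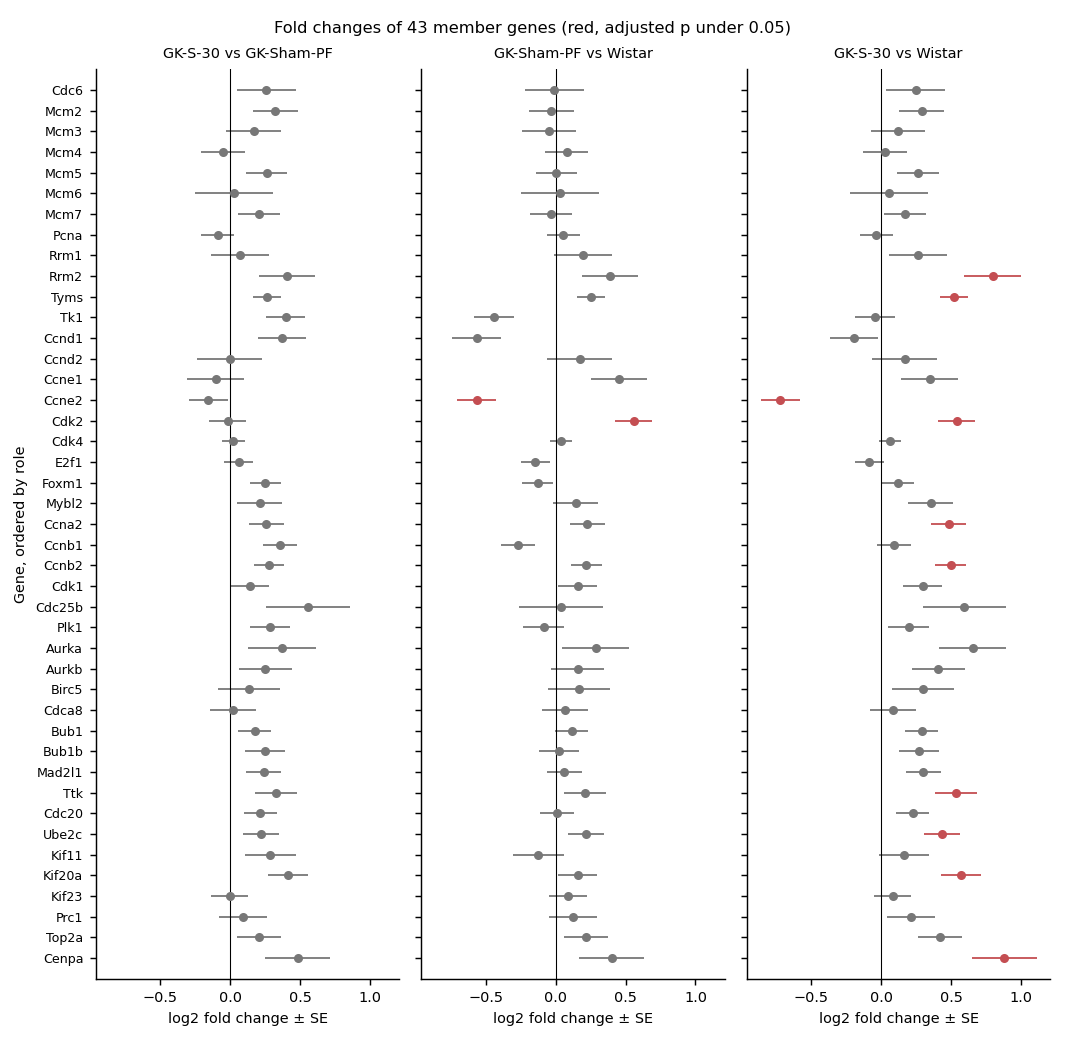
Log2 fold change with its standard error (x axis) of 43 genes (y axis, by role) in 3 comparisons of 5 against 5 arrays; red marks an adjusted p under 0.05. Cdc25a, not above background on most GK arrays, lies off the scale and is left out; most points lie to the right of 0 in the comparisons of RYGB.

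The arrays of RYGB did not act as 1 block. Each gene was centered on its mean over the 15 arrays, and the median over the 44 genes was taken on each array. It was 0.51 on RYGB replicate 1 and 0.38 on replicate 5, but 0.03 and 0.04 on replicates 3 and 4 and -0.15 on replicate 2. Wistar arrays ran from -0.23 to 0.03 and sham arrays from -0.09 to 0.05. Replicate 1 was the highest of all 15 arrays for 28 genes and replicate 5 for 10, while replicate 2 was the lowest of its group for 31. Replicates 1 and 2 shared slide C, and replicates 3, 4 and 5 shared slide D, so high and low arrays lay on the same slide.

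**Figure D2:**
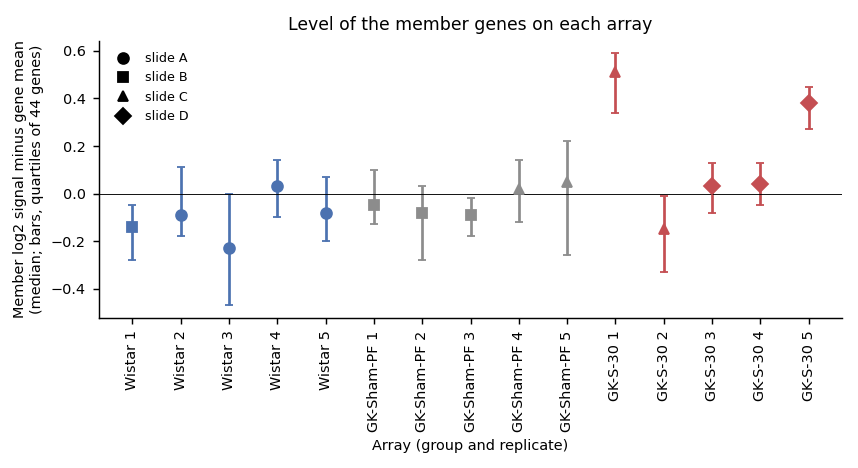
Median of the 44 gene-centered log2 signals on each array (y axis; bars, quartiles over genes), by group (color) and slide (symbol). RYGB replicates 1 and 5 lie at 0.51 and 0.38, and all other arrays between -0.23 and 0.05.

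The spread within RYGB was wider for these genes. The median SD of a member was 0.308 in RYGB, against 0.18 in Wistar and 0.19 in sham, whereas over all genes it was 0.213, 0.211 and 0.216. RYGB had the largest SD for 32 of 44 genes. Without RYGB replicates 1 and 5, an omission chosen after the levels were seen and one that lowers the members by its construction, the median difference from sham was 0.041 and that from Wistar 0.066, and 5 members (Rrm2, Tyms, Ccnb2, Ccne2 and Cdc25a) stayed past the threshold against Wistar, where 19% of all genes passed. Without RYGB replicate 2 the count against Wistar was 19 of 44, where 25.3% of all genes passed. That array was the lowest of its group for most members, so its omission raises them by construction.

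With group means removed, the 44 genes varied together over the 15 arrays. The median r of a gene with the mean of the others was 0.705, and 33 genes were above 0.5, against a median of 0.018 for all tested genes with the mean of the members. Mad2l1, a spindle checkpoint protein, was highest at 0.942 and Ccna2 followed at 0.899. Cdc25a was lowest at 0.027, then Ccnd1 at 0.196. These r values describe arrays that share slides and labeling. The 10 other genes most like the members were Nup43 (r = 0.954), RGD1565403 (0.953), Nup160 (0.934), Phgdh (0.931), Rpn2 (0.926), Nme2 (0.926), Erh (0.916), Nup205 (0.913), Rpn1 (0.911) and Phb2 (0.909), each over 15 arrays.

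**Figure D3:**
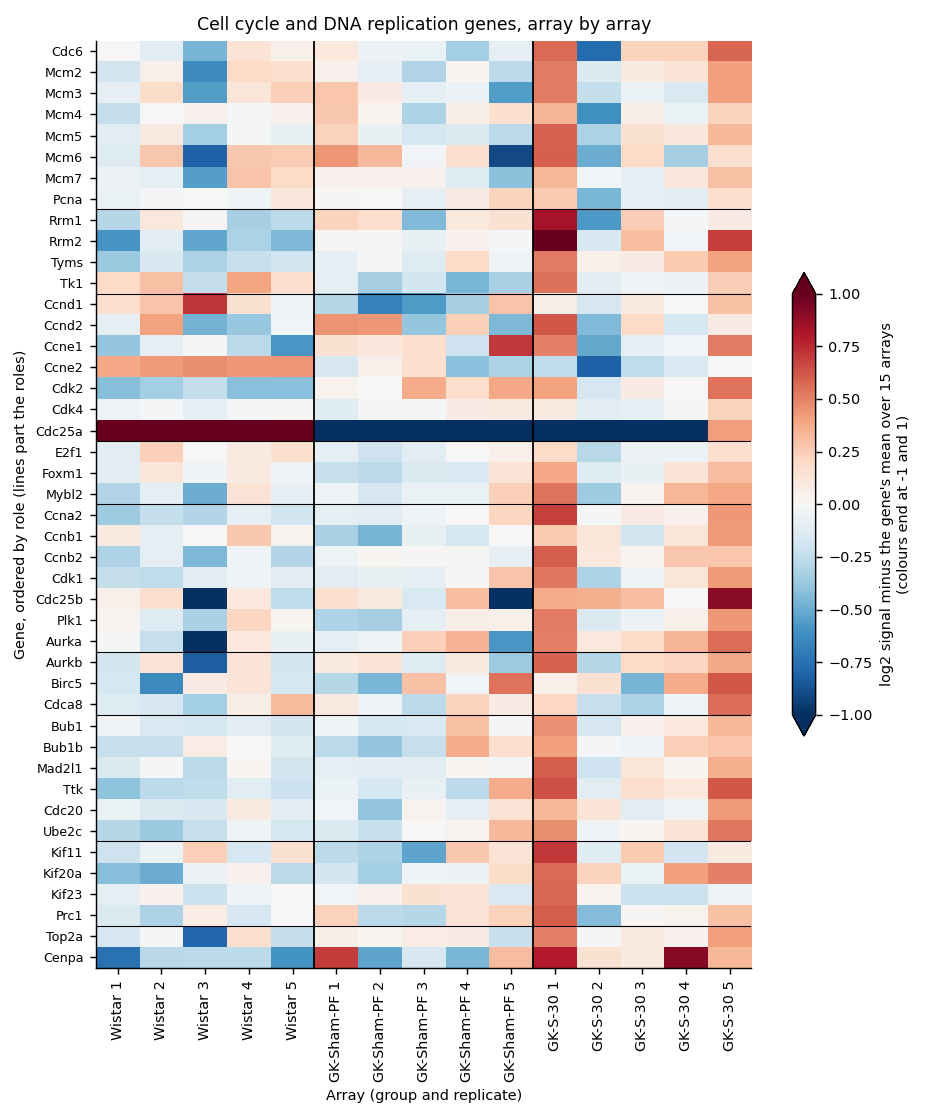
Log2 signal of each gene minus its mean over the 15 arrays (color, ending at -1 and 1), genes by role down the side and arrays across. The columns of RYGB replicates 1 and 5 are red for most genes, and Cdc25a is the row that parts Wistar from the GK groups.

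Markers of other cell types also differed in level between groups and arrays. Of all genes, 9.65% were called between RYGB and sham, 8.83% between sham and Wistar and 26.2% between RYGB and Wistar. The mean centered level of smooth muscle markers (8 of 10 tested, all above background on every array) ran from 0.72 to 1.07 in RYGB, from -0.92 to 0.25 in sham and from -0.66 to 0.03 in Wistar. Of these 8 genes, 5 were called higher in RYGB than in sham and 6 higher than in Wistar. Of 6 tested T cell markers, 3 were called lower in RYGB than in sham and 3 lower than in Wistar. Of 6 myeloid markers 0 and 4 were called lower, and 1 was called higher in RYGB than in Wistar. Of 9 epithelium markers 2 were called higher in RYGB than in sham and 3 higher than in Wistar, and of 4 goblet markers 1 and 2. Paneth markers (2 of 5 tested) ran from -0.32 to 0.30 in RYGB, -0.52 to 0.22 in sham and -0.29 to 0.52 in Wistar. Of these, 1 was called lower in RYGB than in Wistar. Pancreatic acinar markers (4 of 6 tested) ran from -1.37 to -0.35 in Wistar, from 0.15 to 0.87 in sham and from -0.27 to 0.76 in RYGB. They did not move as 1. Against Wistar, 2 were called higher and 1 lower in RYGB, and 1 was called higher in sham. Against sham, 1 was called lower in RYGB. Villus enterocyte markers (6 of 7 tested) were lowest on RYGB replicate 1 (-0.83), then on replicate 5 within RYGB (-0.28), and ran up to 0.07 on the other RYGB arrays, from -0.50 to 0.36 in sham and from -0.46 to 0.40 in Wistar. Crypt stem and progenitor markers (5 of 6) ran from -0.45 to 0.15 in RYGB, from -0.32 to 0.21 in sham and from -0.08 to 0.43 in Wistar. Against Wistar, 1 crypt marker was called lower in sham and 1 in RYGB, and 1 villus marker lower in RYGB. In RYGB, blood markers (2 of 3 tested) ran from -0.93 on replicate 1 to 1.26 on replicate 2. They ran from -0.42 to 0.78 in sham and from -1.31 to -0.12 in Wistar. In RYGB, 1 blood marker was called higher than in Wistar. The part of these cells in the levels of the cell cycle genes was not tested.

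Replication licensing and fork genes showed no call in any of the 3 comparisons. These 8 genes are Cdc6, which loads the helicase, the helicase subunits Mcm2 to Mcm7, and Pcna, the sliding clamp. The log2 signal of Mcm2 was 7.64, 7.88, 7.19, 8.02 and 7.99 in Wistar, 7.87, 7.74, 7.53, 7.85 and 7.57 in sham, and 8.35, 7.69, 7.92, 7.96 and 8.24 in RYGB. The 3 groups overlapped, with RYGB replicate 1 highest and Wistar replicate 3 lowest, and the difference between RYGB and sham was 0.32 ± 0.16 (SE, adjusted p = 0.243). Pcna read 11.63, 11.68, 11.69, 11.65 and 11.81 in Wistar, 11.71, 11.7, 11.61, 11.78 and 11.92 in sham, and 11.96, 11.24, 11.61, 11.59 and 11.87 in RYGB on the log2 scale. The groups overlapped here too, with RYGB holding both the highest array (replicate 1) and the lowest (replicate 2), and the difference between RYGB and sham was -0.091 ± 0.12 (SE, adjusted p = 0.7). The median log2 difference of the 8 genes was 0.187 between RYGB and sham, -0.0041 between sham and Wistar and 0.146 between RYGB and Wistar.

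Of the 4 nucleotide supply genes, Rrm2 and Tyms were called higher in RYGB than in Wistar, where 12.4% of all genes were called higher. The log2 signal of Rrm2, the regulated subunit of ribonucleotide reductase, was 7.11, 7.59, 7.18, 7.38 and 7.25 in Wistar, 7.71, 7.71, 7.62, 7.74 and 7.68 in sham, and 8.9, 7.54, 8.0, 7.67 and 8.39 in RYGB. All sham arrays lay above all Wistar arrays, and RYGB overlapped with both. A dimmer Rrm2 probe differed by 0.44 ± 0.23 (SE, adjusted p = 0.196 over 17028 probes) between RYGB and Wistar. On the brightest probe Rrm2 rose by 0.80 (SE 0.20, adjusted p = 0.00899), while the difference of sham from Wistar was 0.39 ± 0.20 (SE, adjusted p = 0.299). Tyms, thymidylate synthase, read 7.92, 8.13, 7.97, 8.06 and 8.09 in Wistar, 8.21, 8.3, 8.16, 8.49 and 8.25 in sham, and 8.8, 8.34, 8.37, 8.55 and 8.69 in RYGB. Wistar lay below both GK groups without overlap, and the GK groups overlapped with each other. Tyms rose by 0.52 (SE 0.10, adjusted p = 0.00157) in RYGB against Wistar. Tk1, thymidine kinase, ran from 6.79 to 7.42 in Wistar, 6.57 to 6.93 in sham and 6.91 to 7.58 in RYGB. Sham was lowest in mean but overlapped with Wistar, and the difference was -0.44 ± 0.14 (SE, adjusted p = 0.072). The Tk1 probe is annotated on a different chromosome from the Tk1 promoter, and its match to the gene was not tested. Rrm1, the other reductase subunit, differed by 0.27 ± 0.21 (SE, adjusted p = 0.374) between RYGB and Wistar.

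Among the G1 and G1/S genes, Cdk2, Ccne2 and Cdc25a (3 of 7) were called between sham and Wistar, where 8.83% of all genes passed, and between RYGB and Wistar, where 26.2% did. The log2 signal of Cdk2, the kinase partner of cyclins E and A, was 8.55, 8.64, 8.74, 8.56 and 8.56 in Wistar, 9.01, 8.97, 9.35, 9.15 and 9.36 in sham, and 9.38, 8.81, 9.06, 8.98 and 9.52 in RYGB. Both GK groups lay above all Wistar arrays. Cdk2 rose by 0.56 (SE 0.13, adjusted p = 0.0127) in sham and rose by 0.54 (SE 0.13, adjusted p = 0.00686) in RYGB. Ccne2, cyclin E2, read 6.31, 6.35, 6.39, 6.36 and 6.37 in Wistar, 5.76, 5.98, 6.09, 5.51 and 5.61 in sham, and 5.67, 5.12, 5.67, 5.77 and 5.93 in RYGB. Wistar arrays lay close together and above both GK groups. Ccne2 fell by 0.57 (SE 0.14, adjusted p = 0.0188) in sham and fell by 0.72 (SE 0.14, adjusted p = 0.00155) in RYGB. With all probes of a gene averaged, the calls between sham and Wistar ended for Ccne2 (adjusted p = 0.154) and Cdk2 (adjusted p = 0.0557), and that of Ccne2 between RYGB and Wistar ended too (-0.389, adjusted p = 0.138). Ccne2 between sham and Wistar also missed the threshold without sham replicate 4 (adjusted p = 0.0541). A dimmer Ccne2 probe differed by -0.37 ± 0.31 (SE, adjusted p = 0.582) in sham and -0.055 ± 0.31 (SE, adjusted p = 0.919) in RYGB against Wistar. A dimmer Cdk2 probe differed by 0.40 ± 0.19 (SE, adjusted p = 0.259) and 0.51 ± 0.19 (SE, adjusted p = 0.0605).

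Cyclin D1 had its lowest mean in sham. The log2 signal of Ccnd1, which links growth signals to G1 entry, was 11.12, 11.24, 11.67, 11.11 and 10.91 in Wistar, 10.67, 10.28, 10.39, 10.62 and 11.24 in sham, and 11.02, 10.79, 11.05, 10.96 and 11.25 in RYGB. Sham replicate 5 overlapped with both other groups, and its replicates 1 to 4 lay below every Wistar and RYGB array. The difference from Wistar was -0.57 ± 0.17 (SE, adjusted p = 0.0539), and without sham replicate 5 it passed (adjusted p = 0.00548), as it did without Wistar replicate 5 (adjusted p = 0.0459). These were the highest sham and the lowest Wistar array, so leaving either out widens the difference by construction. Between RYGB and sham this brightest probe differed by 0.37 ± 0.17 (SE, adjusted p = 0.204) and was not called. A dimmer Ccnd1 probe read 10.85, 10.9, 10.68, 10.91 and 10.55 in Wistar, 10.36, 10.1, 10.48, 10.1 and 10.24 in sham, and 10.63, 10.72, 10.59, 10.79 and 10.97 in RYGB. On it sham lay below both other groups without overlap, and over all 17028 tested probes the difference was -0.52 ± 0.11 (SE, adjusted p = 0.00612) from Wistar and 0.48 ± 0.11 (SE, adjusted p = 0.0134) for RYGB against sham. Ccnd2, cyclin D2, read 10.24, 10.73, 9.86, 9.95 and 10.3 in Wistar, 10.78, 10.76, 9.94, 10.57 and 9.88 in sham, and 10.95, 9.89, 10.53, 10.15 and 10.41 in RYGB. The 3 groups overlapped, and the differences were -0.0027 ± 0.23 (SE, adjusted p = 0.997) between RYGB and sham and 0.17 ± 0.23 (SE, adjusted p = 0.635) between RYGB and Wistar. Ccne1, cyclin E1, differed by 0.45 ± 0.20 (SE, adjusted p = 0.215) between sham and Wistar, and Cdk4, the kinase partner of cyclin D, by 0.038 ± 0.08 (SE, adjusted p = 0.855).

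Cdc25a, a phosphatase that activates cyclin-dependent kinases, gave the largest difference of the 44 genes. Its log2 signal was 9.02, 8.87, 8.8, 9.04 and 9.17 in Wistar, 1.05, 1.84, 1.68, 1.85 and 2.04 in sham, and 1.07, 2.84, 2.39, 1.88 and 4.84 in RYGB. The signal was well above background on all 5 Wistar arrays, on no sham array and on 1 RYGB array (replicate 5), so the gene passed the filter on dim probes through Wistar alone. Wistar was at least 53.6-fold higher than sham, with arrays below background set at the lowest signal well above it. The limma fit on the signals as read, not so set, gave adjusted p = 6.45e-08. With such arrays set the same way, Wistar was at least 37.1-fold higher than RYGB (adjusted p = 2.49e-07 from the fit on the signals as read). The array held 1 named probe of the gene, annotated at chr8:114254799-114254857 (rn4, plus strand).

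Kif11, a kinesin that separates spindle poles, had a dimmer probe with the same order of groups. Its log2 signal was 5.11, 4.12, 4.89, 4.67 and 4.79 in Wistar, 2.36, 2.2, 2.53, 2.06 and 2.68 in sham, and 3.48, 3.23, 2.72, 2.22 and 1.66 in RYGB. It was well above background on all 5 Wistar arrays, on no sham array and on 1 RYGB array, so it too was tested through Wistar alone. Wistar was at least 2.78-fold higher than sham (adjusted p = 5.80e-05 over 17028 probes, from the fit on the signals as read). The brighter probe, which stood for the gene, ran from 6.25 to 6.7 in Wistar, 5.93 to 6.73 in sham and 6.27 to 7.17 in RYGB. Its groups overlapped and no comparison was called. Both probes are shown because they part. They are annotated on the plus strand of rn4, the dimmer at chr1:241682887-241683187, a span longer than its 60 bases, and the brighter at chr1:241715804-241715863.
Kif11 dimmer: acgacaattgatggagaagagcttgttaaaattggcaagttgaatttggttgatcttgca
Kif11 brighter: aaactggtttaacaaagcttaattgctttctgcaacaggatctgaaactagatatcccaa
Of 20 dimmer probes of 19 genes, 5, 6 and 5 had the opposite sign from the brightest probe between RYGB and sham, sham and Wistar, and RYGB and Wistar. The match of the probes to the sequence of GK rats was not tested.

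**Figure D4:**
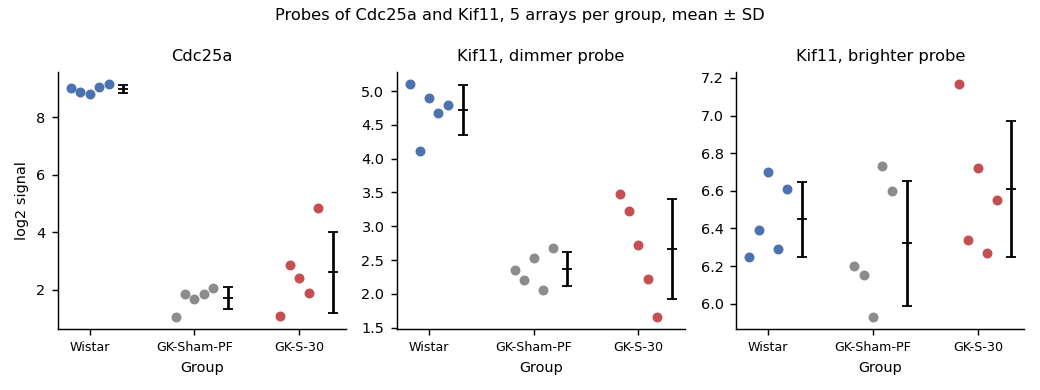
Log2 signal (y axis) of the Cdc25a probe and of both Kif11 probes on 5 arrays per group, with mean and SD beside them. Wistar lies above both GK groups on the first and second panels, and the groups overlap on the third.

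The factors E2f1, Foxm1 and Mybl2, which switch on replication and mitotic genes, had no call on their brightest probes. Foxm1 ran from 8.82 to 9.05 in Wistar, 8.67 to 9.07 in sham and 8.8 to 9.32 in RYGB, and differed by 0.25 ± 0.11 (SE, adjusted p = 0.188) between RYGB and sham. Mybl2 differed by 0.35 ± 0.16 (SE, adjusted p = 0.119) and E2f1 by -0.084 ± 0.10 (SE, adjusted p = 0.59) between RYGB and Wistar. A dimmer Mybl2 probe passed in that comparison (0.61 ± 0.18, SE, adjusted p = 0.0236 over 17028 probes). All 3 overlapped between RYGB and sham.

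All 7 S/G2 and mitotic cyclins, kinases and phosphatases were higher in mean in RYGB than in sham rats, and none passed the test. The log2 signal of Ccnb1, cyclin B1, was 9.99, 9.81, 9.89, 10.17 and 9.93 in Wistar, 9.57, 9.43, 9.82, 9.72 and 9.9 in sham, and 10.16, 10.02, 9.71, 10.02 and 10.32 in RYGB. Sham held the 2 lowest arrays, and RYGB replicate 3 lay among the sham arrays. The difference was 0.36 ± 0.12 (SE, adjusted p = 0.0787), and it passed without RYGB replicate 3 (adjusted p = 0.0306). That array was the lowest of RYGB, so its omission raises the difference by construction. Ccnb2, cyclin B2, whose promoter is shown above, read 8.3, 8.51, 8.16, 8.57 and 8.32 in Wistar, 8.56, 8.63, 8.62, 8.62 and 8.53 in sham, and 9.22, 8.72, 8.64, 8.88 and 8.89 in RYGB. It was the 1 member whose RYGB arrays all lay above all sham arrays (9% of all genes did not overlap), by 0.28 ± 0.11 (SE, adjusted p = 0.136), and Ccnb2 rose by 0.50 (SE 0.11, adjusted p = 0.00387) in RYGB against Wistar.

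Ccna2, cyclin A2, read 9.71, 9.83, 9.77, 9.97 and 9.87 in Wistar, 9.97, 9.95, 10.02, 10.06 and 10.28 in sham, and 10.75, 10.05, 10.15, 10.11 and 10.5 in RYGB. All RYGB arrays lay above all Wistar arrays, and Ccna2 rose by 0.48 (SE 0.13, adjusted p = 0.0113), with a dimmer probe at 0.60 ± 0.16 (SE, adjusted p = 0.0127). Cdk1, the mitotic kinase, read 12.0, 11.98, 12.13, 12.19 and 12.13 in Wistar, 12.13, 12.16, 12.15, 12.25 and 12.52 in sham, and 12.76, 11.93, 12.19, 12.36 and 12.66 in RYGB. The groups overlapped, RYGB replicate 2 was the lowest of the 15 arrays, and the difference between RYGB and Wistar was 0.30 ± 0.14 (SE, adjusted p = 0.133), which passed without that array (adjusted p = 0.0265). Leaving out the lowest RYGB array raises this difference by construction. Aurka, the kinase Aurora A, ran from 6.55 to 8.0 in Wistar, 7.31 to 8.24 in sham and 8.0 to 8.45 in RYGB. Its unrounded values did not overlap between RYGB and Wistar, and the difference was 0.65 ± 0.24 (SE, adjusted p = 0.0573). Plk1 and Cdc25b, a kinase and a phosphatase of mitotic entry, differed by 0.28 ± 0.15 (SE, adjusted p = 0.254) and 0.56 ± 0.30 (SE, adjusted p = 0.278) between RYGB and sham.

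Of the other mitotic genes, Ttk, Ube2c, Kif20a and Cenpa were called, all higher in RYGB than in Wistar. In that comparison 26.2% of all genes were called, and 12.4% were called higher. Ttk, a spindle checkpoint kinase, read 8.67, 8.81, 8.82, 8.97 and 8.86 in Wistar, 9.01, 8.9, 9.0, 8.81 and 9.44 in sham, and 9.71, 8.97, 9.25, 9.18 and 9.69 in RYGB. RYGB and Wistar did not overlap before rounding, and Ttk rose by 0.54 (SE 0.15, adjusted p = 0.0159). The call ended with all probes averaged (0.372, adjusted p = 0.161), and a dimmer Ttk probe differed by 0.21 ± 0.24 (SE, adjusted p = 0.574 over 17028 probes). Ube2c, which supplies ubiquitin to the anaphase-promoting complex, read 10.2, 10.11, 10.25, 10.44 and 10.31 in Wistar, 10.34, 10.26, 10.49, 10.52 and 10.81 in sham, and 10.95, 10.44, 10.5, 10.62 and 11.01 in RYGB. Ube2c rose by 0.44 (SE 0.13, adjusted p = 0.0225), and missed the threshold without Wistar replicate 2 (adjusted p = 0.054), RYGB replicate 1 (adjusted p = 0.0575) or RYGB replicate 5 (adjusted p = 0.0618). Kif20a, a kinesin of the spindle midzone, read 9.09, 9.02, 9.46, 9.56 and 9.25 in Wistar, 9.33, 9.18, 9.48, 9.46 and 9.7 in sham, and 10.08, 9.74, 9.45, 9.93 and 10.02 in RYGB. Kif20a rose by 0.57 (SE 0.14, adjusted p = 0.00806), with RYGB replicate 3 inside the range of Wistar.

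Cenpa, the histone variant of centromeres, read 6.11, 6.58, 6.6, 6.6 and 6.26 in Wistar, 7.56, 6.33, 6.7, 6.4 and 7.17 in sham, and 7.65, 7.01, 6.95, 7.77 and 7.19 in RYGB. RYGB and Wistar did not overlap, sham spread over both, and Cenpa rose by 0.88 (SE 0.23, adjusted p = 0.0111) in RYGB against Wistar. Top2a, the topoisomerase that untangles replicated DNA, read 8.93, 9.08, 8.31, 9.26 and 8.86 in Wistar, 9.16, 9.12, 9.17, 9.18 and 8.88 in sham, and 9.6, 9.08, 9.2, 9.14 and 9.52 in RYGB. The groups overlapped, and the difference between RYGB and Wistar was 0.42 ± 0.16 (SE, adjusted p = 0.0613), which passed without Wistar replicate 4 (adjusted p = 0.0302) or RYGB replicate 2 (adjusted p = 0.0484). These were the highest Wistar and the lowest RYGB array, so leaving either out widens the difference by construction. A dimmer Top2a probe differed by 0.011 ± 0.14 (SE, adjusted p = 0.967). The passenger complex genes Aurkb, Birc5 and Cdca8, the checkpoint genes Bub1, Bub1b and Mad2l1, the anaphase activator Cdc20, and the midzone proteins Kif23 and Prc1 had no call on their brightest probes, and their differences between RYGB and Wistar lay between 0.083 and 0.41. A dimmer Bub1b probe passed (0.52 ± 0.16, SE, adjusted p = 0.0257).

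**Figure D5:**
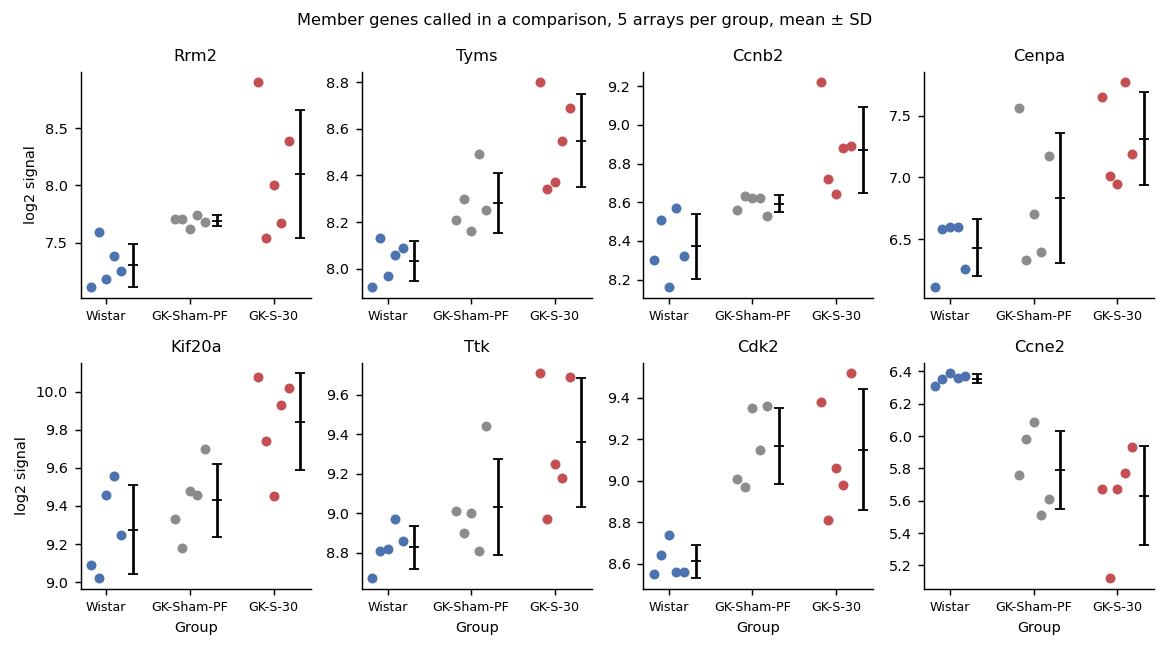
Log2 signal (y axis) of 8 of the genes called in a comparison, 5 arrays per group, with mean and SD beside them. Cdk2 and Ccne2 part Wistar from both GK groups in opposite directions, and RYGB spreads widely for Rrm2 and Ttk.

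Non-overlap between groups, counted over members, was 5 of 44 between sham and Wistar (9.69% of all genes) and 9 of 44 between RYGB and Wistar (19.5% of all genes). Single arrays left out gave 0 to 2 calls between RYGB and sham by limma, where 6.64% to 11.5% of all genes passed. The calls were Ccnb1 and Kif20a without RYGB replicate 3, Cdc6 without RYGB replicate 2 and Ccnd1 without sham replicate 5. Each left-out array was the lowest RYGB or highest sham array for the gene, so its omission widens the difference by construction.

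With slide as a fixed block, Cdc25a was the 1 member called in each comparison against Wistar. In that fit 179 genes of the array (1.37%) were called between sham and Wistar and 237 (1.82%) between RYGB and Wistar. In that fit Rrm2, Ccnb2 and Cenpa differed by 1.07, 0.70 and 1.29 on the log2 scale between RYGB and Wistar. Kif20a, Ttk, Tyms and Ccna2 differed by 0.578, 0.522, 0.509 and 0.503 there. Cdk2, Ube2c and Ccne2 differed by 0.395, 0.188 and -0.528. Between sham and Wistar, Cdk2 and Ccne2 differed by 0.56 and -0.37. Both comparisons rested on Wistar replicate 1, the Wistar array of slide B. As no slide held Wistar and RYGB together, these groups were linked through sham arrays and RYGB replicates 1 and 2 on slide C. On slide C, the mean of RYGB replicates 1 and 2 exceeded that of sham replicates 4 and 5 by a median of 0.162. For 31 of 44 members it was higher. The median centered level was 0.51 on RYGB replicate 1 and -0.15 on replicate 2, against 0.02 and 0.05 on sham replicates 4 and 5. The fixed block fit gave the same median, 0.162, between RYGB and sham, as only slide C held both groups.

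A wider list of 164 further cell cycle genes, of which 137 were tested, was read beside the members. Between RYGB and sham, 9 were higher and 0 lower (6.57% of the 137, against 9.65% of all genes in either direction), with a median log2 difference of 0.144. Among those without overlap, the polymerase subunits Pola2 and Pole2 differed by 0.85 ± 0.24 (SE, adjusted p = 0.0359) and 0.70 ± 0.21 (SE, adjusted p = 0.0474), and Gins2, a helicase partner, by 0.85 ± 0.23 (SE, adjusted p = 0.0281). Anln, a cytokinesis protein, and Cenpm, a centromere protein, differed by 0.69 ± 0.17 (SE, adjusted p = 0.0176) and 0.38 ± 0.11 (SE, adjusted p = 0.0459). Ccna1, cyclin A1, was well above background on 5 RYGB, 3 sham and 0 Wistar arrays and so was tested through RYGB alone. It is 1 of the 9. RYGB was at least 2.58-fold higher than sham (adjusted p = 0.0234) and at least 3.32-fold higher than Wistar (adjusted p = 4.14e-05). Both adjusted p-values are from the fit on the signals as read.

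Between sham and Wistar, 5 genes of the wider list, Ccna1 among them, were higher and 6 lower (8.03%, against 8.83% of all genes). Of all genes, 4.2% were higher and 4.63% lower there. The median difference of the list was -0.0019. Cenpt, a kinetochore protein, rose by 2.04 (SE 0.11, adjusted p = 9.04e-09), Lmnb1, a lamin of the nuclear envelope, rose by 0.79 (SE 0.16, adjusted p = 0.00621), and Dut, which removes dUTP, rose by 0.56 (SE 0.12, adjusted p = 0.00866). Prim1, the primase subunit, fell by 1.25 (SE 0.11, adjusted p = 1.13e-06). Anapc1, a subunit of the anaphase-promoting complex, fell by 0.53 (SE 0.12, adjusted p = 0.00876), Rfc1, of the clamp loader, fell by 0.28 (SE 0.08, adjusted p = 0.0327), and Cenpm rose by 0.50 (SE 0.11, adjusted p = 0.0115). Between RYGB and Wistar, 24, Ccna1 among them, were higher and 10 lower (24.8%, against 26.2% of all genes). Of all genes, 12.4% were higher and 13.8% lower there. The median difference of the list was 0.149. Among the largest without overlap, beside Ccna1, were Cenpt at 2.29, Lmnb1 at 1.29, Prim1 at -1.23, Pole2 at 1.07, Cenpm at 0.88 and Anln at 0.79.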

How the data were processed

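Total RNA of 15 intestinal samples was hybridized to Agilent whole rat genome arrays, 1 array per rat. The authors deposited intensity values of each spot as Feature Extraction 10.7.3.1 (by the file headers) wrote them, and log2 values in a series matrix, quantile-normalized by the authors. Here the processed signal was averaged over unflagged spots of a probe, taken as log2 without a pseudocount, and quantile-normalized over 41012 probes with limma 3.58.1 in R 4.3.3. Probes (named through RefSeq, GRCr8; positions in rn4) entered the test if all arrays of some group read them well above background, and the brightest stood for its gene. All 15 arrays entered 1 limma model with no covariate, with Benjamini-Hochberg adjustment over 13023 genes and a threshold of 0.05. The number of arrays limits the precision, and p-values cover the spread between rats.

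Members, lists and markers were chosen with earlier results of these data known. Every called member is named, with Mki67, Top2a, Pcna, Mcm2, Ccnd1, Ccnd2, Ccnb1 and Cdk1, and, of the wider list, up to 8 called genes per comparison without overlap and with the largest difference. Some genes and 1 marker list that these rules take in are not reported here. Arrays were tried scaled to the 75th percentile, with normexp (offset 50), from the series matrix, with other filters, with all probes averaged, with slide or replicate as a block, with Tukey's test and with each array left out. Other tools were statmod 1.5.0, version 1.17.8 of data.table, Python 3.11.15 and matplotlib 3.10.9. The fit was tested on simulated data (13005 genes, RYGB against sham), and it recovered 19.4% of changes of 0.5, 77.6% of 1 and 98.5% of 2 on the log2 scale. The simulation changed 67, 67 and 66 genes and drew independent normal errors, with no slide effect and 1 spread per gene for all groups. The data differ from these settings, as members spread more widely in RYGB. Sequences came from RefSeq and from the array files.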

Additional observations from a re-analysis of the deposited data

Results flagged for a closer look

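Of 132 groups of 5 arrays (44 genes in 3 groups), 7 held an array that stood apart from the other 4, where chance gives about 1 in 20. The gap to the nearest array as a share of the group's range was 0.737 for Cdc6 on RYGB replicate 2 (log2 signal 4.71, nearest 5.70), and 0.808 for Mcm4 on Wistar replicate 1 (5.71, nearest 5.94). It was 0.802 for Rrm1 on sham replicate 3 (7.35, nearest 7.89) and 0.765 for Aurka on Wistar replicate 3 (6.55, nearest 7.66). On sham replicate 5 it was 0.719 for Mybl2 (8.85, nearest 8.56), 0.712 for Cdc25b (4.83, nearest 5.96) and 0.813 for Top2a (8.88, nearest 9.12). Wistar replicate 3 and sham replicate 5, which gave 4 of the 7, were the arrays with the dimmer signal, and its part in these values was not tested.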

How the results depend on the processing

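Between RYGB and sham, the count of 0 members became 1 with normexp (Tk1) and 1 with all probes averaged (Ccnd1). In both settings 9.63% of all genes passed. It became 4 with Tukey's comparison (16.3% of all genes). Without the 2 dimmer arrays it was 3 (Ccnd1, Ccnb1 and Kif20a), where 12.5% of all genes passed. Single arrays left out gave 0 to 2 (6.64% to 11.5% of all genes). Between sham and Wistar, 3 became 1 with slide as a fixed block (1.37% of all genes) and 6 with Tukey's comparison (14.7%). The count was 1 with the Benjamini-Hochberg adjustment of Tukey's comparison (5.44%) and 5 without RYGB replicates 1 and 5 (8.85%). With single arrays left out it was 2 to 4 (6.63% to 9.33%). Between RYGB and Wistar, 11 became 1 with slide as a fixed block (1.82% of all genes). Tukey's comparison after Benjamini-Hochberg adjustment gave 8 (17.5%), and Ttk, Ube2c and Cenpa missed at 0.0619, 0.0729 and 0.0579. The count was 5 without RYGB replicates 1 and 5 (19%) and 10 to 19 with single arrays left out (21.7% to 28.4%). Without RYGB replicates 1 and 5 the medians were 0.0407 and 0.0655. Both sets of left-out pairs were chosen after seeing the data. The fixed block leaves few arrays to compare, and the cause of the lost calls was not tested.

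No called difference of a member changed sign under the alternatives run. Some differences that were not called did. Ccnd2 between RYGB and sham was 0.0521 with the 75th percentile, 0.0119 with normexp and 0.192 with slide as a fixed block, and -0.144 to 0.122 with single arrays left out. With the fixed block Ccnd1 was -0.0249 and Cdk1 -0.0377 in that comparison, Mcm2 0.0756 between sham and Wistar, and Ccnb1 -0.102 between RYGB and Wistar. Pcna ran from -0.167 to 0.0118 between RYGB and sham with single arrays left out. With all probes averaged Mcm2 was 0.0922 between sham and Wistar, and it ran from -0.171 to 0.0369 with single arrays left out. Pcna between RYGB and Wistar was 0.0372 with the 75th percentile and 0.0809 with all probes averaged, and ran from -0.113 to 0.0665. Without RYGB replicates 1 and 5, Cdk1 was -0.0808 against sham, and Ccnd2 -0.0264 and Ccnb1 -0.0408 against Wistar.

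The labels do not say whether equal replicate numbers pair the rats. The correlation of same-numbered deviations was over 0.1 for 1 of 5 pairs in each comparison (-0.275 to 0.181 over all). These correlations cannot show whether rats were paired, as a pairing need not leave a trace in them. With the replicate block the counts were 0, 2 and 11 (6.82%, 6.56% and 22% of all genes). Ccne2 then missed the threshold between sham and Wistar (adjusted p = 0.0551). The series matrix gave counts of 0, 3 and 11 (9.65%, 8.81% and 26.3% of all genes). No value of Wistar against RYGB within a slide could be had, as no slide held both.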
